A study of Mus musculus with 6 samples.

Results

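Cortical layer 6 spots are the spots of a brain section that carry the most RNA of 5 genes of deep cortical neurons, Rprm, Tbr1, Hs3st4, Tle4 and Garnl3. They come from a Visium spatial RNA sequencing study of the ageing brain, in which the animals, all male, were C57BL/6J mice (a laboratory inbred strain) aged 6 months (young), 18 months (middle) or 21 months (old), with 2 coronal sections per age. No transgene or treatment is named for any group, and since the labels give 2 males per age each section was taken as 1 animal. In this assay a 16 µm section covers an array of spots with barcoded capture probes, and captured transcripts are counted as unique molecular identifiers (UMIs); a spot is a small patch of tissue and mixes the RNA of neighbouring cells of more than 1 type. Of 16741 spots with at least 500 UMIs, 720 were chosen, 120 in each section, which is 4.04% to 4.66% of the spots of a section. Each spot was scored by the sum over the 5 genes of the natural log of 1 plus the gene's UMIs per 10000 UMIs of the spot, and the 120 spots with the highest score in a section were kept. The spots were thus chosen by the measured values of these 5 genes, which are given below as a description only.

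Layer 6 is the deepest layer of the cerebral cortex and borders the white matter. It holds corticothalamic neurons, which send axons to the thalamus, and intratelencephalic neurons, which project within the cortex, and its lower edge, layer 6b, is formed by neurons that persist from the embryonic subplate. Tbr1 and Tle4 encode transcriptional regulators of deep-layer neurons, Rprm encodes a cell cycle regulator used as a layer 6 marker, Hs3st4 encodes an enzyme that modifies heparan sulfate, and Garnl3 encodes a protein with a GTPase-activator domain.

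Summed over the 120 spots, the sections gave 4461956 (young 1), 4303493 (young 2), 4447363 (middle 1), 4353082 (middle 2), 3713056 (old 1) and 3139919 (old 2) UMIs, between 5.15% and 5.83% of all UMIs of a section. The median layer 6 spot of young 1 and young 2 held 37695.5 and 34913 UMIs, that of middle 1 and middle 2 held 36932 and 36711, and that of old 1 and old 2 held 30717 and 25348, so that both old sections lay below the other 4. The second middle and the second old section lay on slide 2 and the other 4 on slide 1, so that age and slide overlap in part, and values within slide 1 are given beside the pooled ones. Spot barcodes are printed on the slide and recur between sections, and 186 of the 457 barcodes among layer 6 spots occurred in 2 or more sections. The 2 sections of an age differed by more than counting error, with a chi-square per degree of freedom of 2.55 to 3.64, so they are not copies of the same counts. This value cannot tell 2 animals from 2 sections of 1 animal, and counting them as separate rests on the labels.

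The last spot taken in a section had a score of 4.15 to 4.43 and the first left out scored 4.15 to 4.402, so the boundary falls within a continuous range. The median score was 4.96 to 5.27 in layer 6 spots and 1.11 to 1.24 in the other spots. All 5 genes had at least 1 UMI in 99.2% and 94.2% of the layer 6 spots of the young sections, 93.3% and 91.7% in middle, and 90% and 81.7% in old, against 6.29% to 12.2% of the other spots, shares that also depend on the depth of the spots. When every spot was first reduced to 10000 UMIs, 82 to 89 of the 120 spots of a section were chosen again.

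Levels are given here as CPM, counts scaled to an equal total for every set of summed spots, as the mean over 6 sections. The 5 genes of the rule were higher in layer 6 spots in 6 of 6 sections, by choice. Rprm was at 319 CPM against 42.9 CPM in all other spots. The log2 ratios of Rprm, Tbr1, Hs3st4, Garnl3 and Tle4 were 2.86, 2.01, 2.00, 1.92 and 1.90. Markers of corticothalamic neurons that the rule did not use were also higher in 6 of 6 sections. Foxp2, a forkhead transcription factor of these neurons, was at 48.1 CPM (36.0 to 64.8 over sections) against 21.0 CPM (19.0 to 23.2) in other spots. Syt6, a synaptotagmin, was at 32.9 against 11.2 CPM, and the neurotensin receptor gene Ntsr1 was at 9.24 against 3.89 CPM. Summed over 7 corticothalamic markers the level was 283 CPM in layer 6 spots, 166 CPM in 120 spots per section chosen in the same way for layer 5 markers, and 124 CPM in all other spots.

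The spots held the other neuron classes of layer 6 as well. Layer 6b markers summed to 464 CPM in layer 6 spots, 83.4 CPM in layer 5 spots and 120 CPM in all other spots. Among them Ccn2, a secreted matrix-associated growth factor and subplate marker, was at 139 CPM (118 to 155) against 18.6 CPM. Cplx3, a complexin of the presynaptic terminal, was at 78.6 CPM (51.2 to 106) against 11.5 CPM, and the nuclear receptor gene Nr4a2 was at 179 against 41.1 CPM. Markers of layer 6 intratelencephalic neurons summed to 277 CPM against 81.5 and 128 CPM, and included the synaptic vesicle gene Synpr (217 against 106 CPM in other spots), the kappa opioid receptor gene Oprk1 (16.2 against 5.88 CPM) and the carbonic anhydrase gene Car3 (4.20 against 0.87 CPM). Slc17a7, the vesicular glutamate transporter of cortical excitatory neurons, was at 1101 CPM against 516 CPM. These genes come from the same spots that the rule chose, so they check the name and carry no test.

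Other regions were present at lower levels. Layer 5 markers summed to 127 CPM in layer 6 spots and 168 CPM in all other spots. They were at 555 CPM in layer 5 spots, which these same genes chose. Layer 2/3 markers summed to 179 CPM in layer 6 spots, against 403 CPM in layer 5 spots. Thalamic markers summed to 109 CPM against 532 CPM in all other spots, and the thalamic genes Prkcd, a protein kinase C, and Tcf7l2, a Wnt pathway transcription factor, were at 7.64 against 157 CPM and 5.67 against 89.1 CPM. Oligodendrocyte markers summed to 6954 CPM, against 7431 CPM in all other spots and 63581 CPM in the 120 spots per section that scored highest for them, so that myelin RNA was part of the layer 6 spots. Hippocampal markers summed to 503 CPM against 300.1 CPM, which came from Nptx1, a secreted pentraxin that cortical neurons also express, at 436 against 134 CPM. The 4 dentate and CA1 genes Prox1, C1ql2, Wfs1 and Fibcd1 were lower in layer 6 spots than in the others.

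Of 7047 genes with at least 20 CPM in layer 6 spots, 116 were more than 2-fold higher there than in all other spots, again as a description. Among genes with at least 20 CPM in the other spots, 157 were more than 2-fold lower in layer 6 spots. The largest log2 ratios outside the rule belonged to Gm40518, an unnamed gene model at 31.0 CPM against 1.90 CPM (3.46), Trbc2, annotated as a T cell receptor constant region, at 141 against 15.1 CPM (3.15), and Nxph3, a neurexin ligand, at 103 against 13.1 CPM (2.89). Ccn2 (2.83), Arhgap25 (2.77), the immunoglobulin heavy chain gene Ighm at 158 CPM (126 to 200 over sections) against 22.9 CPM (2.73), Gadd45a (2.73), Col5a1 (2.68) and Cplx3 (2.64) followed. Myl4, Vxn, Sla, Rai14 and Hs3st2 were also among the 15 highest, with log2 ratios of 2.14 to 2.42. Trbc2 and Ighm had 3457 and 3900 UMIs in the 720 spots. Of 10 lymphocyte markers examined, Ms4a1, Cd3d, Cd3e and Cd3g had 0 UMIs there. Ptprc had 32, Jchain 16, Trac 12, Cd79b 7, Cd79a 6 and Igkc 1. All 10 had a mean below 3 CPM in layer 6 spots and in all other spots alike. The source of the Trbc2 and Ighm RNA was not tested.

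**Figure D1:**
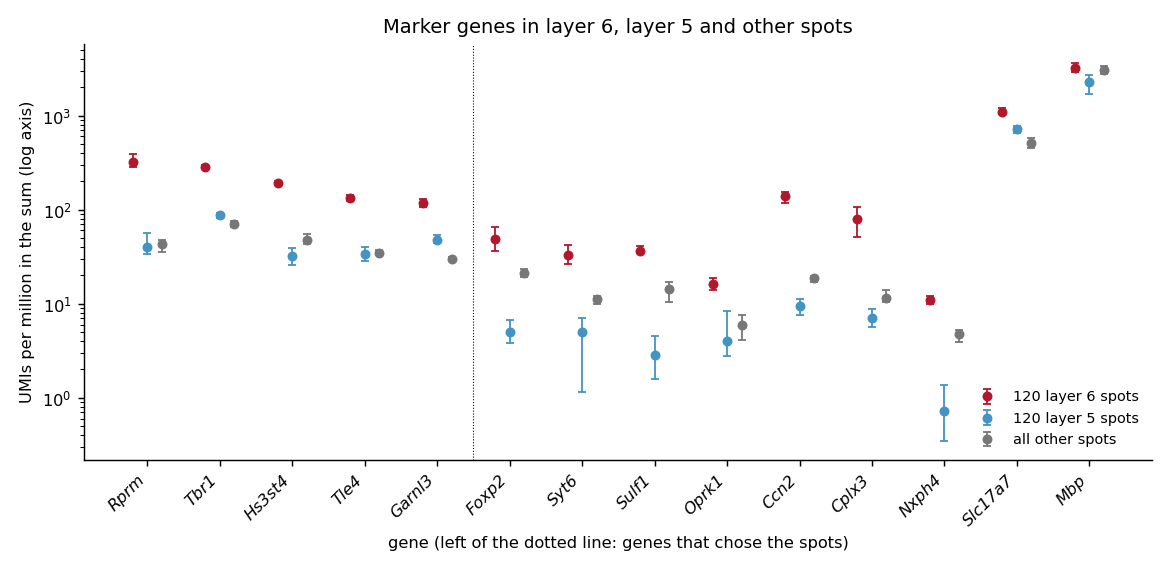
Level in CPM of the summed spots, on a log axis, for 14 marker genes on the horizontal axis; points are means over 6 sections and bars run from the lowest to the highest section, in 120 layer 6 spots (red), 120 layer 5 spots (blue) and all other spots (grey) per section. Genes left of the dotted line chose the spots, and right of it Foxp2 stands at 48.1 in layer 6 spots against 5.03 in layer 5 spots, while Mbp, a myelin gene, is at like levels in all.

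The 120 spots of a section were not alike. They were divided by the share of their UMIs in oligodendrocyte genes into 3 sets of 40, whose median share was 0.209% to 0.327% in the lowest and 1.07% to 1.32% in the highest set over the 6 sections. Of 7 layer 6b markers, 5 were higher in the myelin-rich set in 6 of 6 sections: Ccn2 was at 319 CPM in the highest and 62.8 CPM in the lowest set (mean log2 ratio 2.36 ± 0.55, SD over 6 sections), Cplx3 at 184 and 26.2 CPM and Nxph4, a neurexophilin, at 26.3 and 3.77 CPM. Moxd1 and Inpp4b had mean log2 ratios of 2.19 and 0.64. Nr4a2 ran the other way, at 136 CPM in the highest and 236 CPM in the lowest set and lower in the myelin-rich set in 6 of 6 sections, and Tmem163 had a ratio of 0.01.

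Of 5 intratelencephalic markers, 3 were lower in the myelin-rich set in 6 of 6 sections. Synpr was at 70.9 CPM in the highest and 353 CPM in the lowest set, Oprk1 at 4.85 and 28.3 CPM, and Car3 at 1.01 and 7.82 CPM. Sulf1, a sulfatase that acts on heparan sulfate, was higher in the myelin-rich set in 5 of 6 sections (43.5 and 33.7 CPM), and Osr1 in 4 of 6, at 2.13 and 3.01 CPM on average. Corticothalamic markers were mixed. Foxp2, Syt6 and Crym had mean log2 ratios of 0.03, 0.07 and -0.06. Zfpm2 (0.62, higher in 6 of 6 sections), Pcsk5 (0.71, 5 of 6) and Ntsr1 (0.46, 5 of 6) were higher in the myelin-rich set, and Sox5 was lower in 6 of 6 (-0.42). Of the genes that chose the spots, Hs3st4 and Tle4 had ratios of 0.45 and 0.44, each higher in 6 of 6 sections, and Rprm one of 0.02. Penk, the enkephalin precursor, was at 33.3 CPM in the highest and 112 CPM in the lowest set.

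Genes of glia followed the same axis. Gfap, the intermediate filament of astrocytes, was at 81.4 CPM in the myelin-rich and 17.9 CPM in the myelin-poor set, and the complement gene C4b at 33.6 and 4.4 CPM, each higher in the myelin-rich set in 6 of 6 sections. In the myelin-rich set C4b was at 13.1 and 11.4 CPM in the young sections, 40.6 and 35.5 CPM in middle and 48.9 and 52.2 CPM in old, while in the myelin-poor set it was at 1.8 and 3.1, 7.2 and 7.1, and 2.4 and 5.0 CPM. Both young sections were below the other 4 in the myelin-rich set, and in the myelin-poor set old 1 lay between the young sections. Hspa1a, an inducible heat shock protein 70, was highest in both young sections in either set (34.0 and 37.7 CPM in the myelin-poor set and 53.1 and 44.9 CPM in the myelin-rich set) and was at 11.8 to 20.0 CPM in the middle and old sections.

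**Figure D2:**
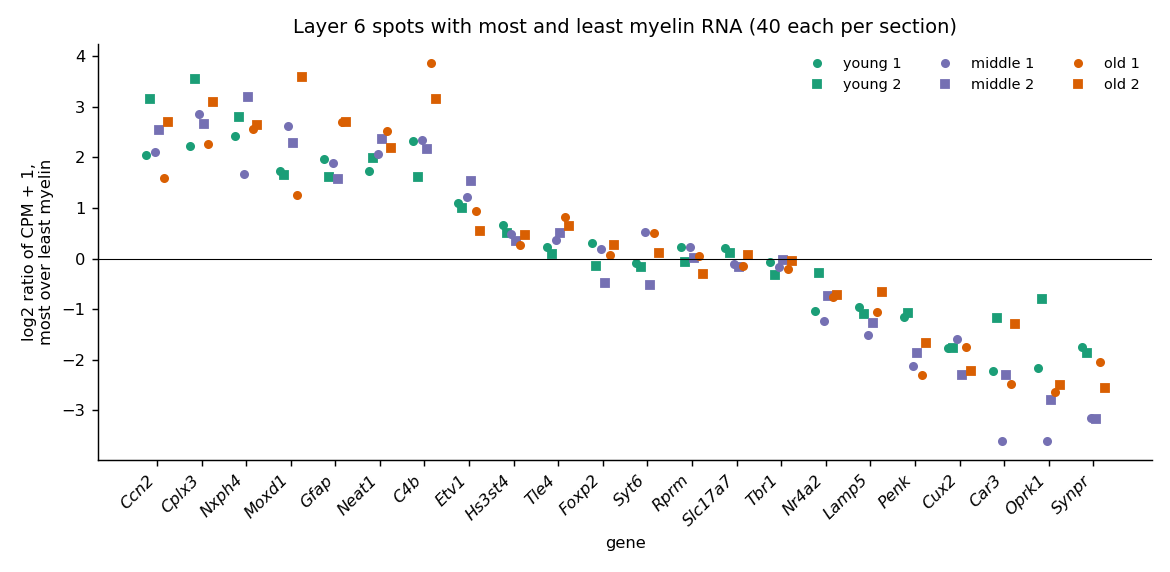
Log2 ratio of CPM plus 1 between the 40 layer 6 spots with the most and the 40 with the least myelin RNA of each section, for 22 genes on the horizontal axis, with 1 point per section (colour for age, circle and square for sections 1 and 2). Ccn2, Cplx3, Nxph4, Gfap and C4b are above 0 in 6 of 6 sections, Nr4a2, Penk, Car3, Oprk1 and Synpr are below 0 in 6 of 6, and Foxp2, Syt6 and Rprm lie about 0.

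The ages were compared on the summed UMIs of the layer 6 spots of each section, with CPM scaled by TMM factors, a correction for differences in composition between libraries. Of 12616 genes tested with edgeR's quasi-likelihood test, 35 passed a Benjamini-Hochberg adjusted p of 0.05 between old and young (0.277% of the genes tested), 19 higher (0.151%) and 16 lower (0.127%) in old, and 9.36% had an unadjusted p under 0.05. Between middle and young 15 passed (0.119%), 7 higher (0.0555%) and 8 lower (0.0634%) in middle, with 7.35% at an unadjusted p under 0.05. Between old and middle 0 passed (0.0%), where 524 genes (4.15%) had an unadjusted p under 0.05 and DESeq2 also made 0 calls. A test of a linear trend over age in months called 58 genes (0.46%), 30 rising (0.238%) and 28 falling (0.222%), with 10.4% at an unadjusted p under 0.05. Below, pairs of CPM values are sections 1 and 2 of young, middle and old in that order, and an adjusted p is edgeR's with Benjamini-Hochberg adjustment; values in brackets are the log2 fold change between old and young unless another is named, and ranges beside a lost call run over the fits with a section left out. The median log2 fold change over all genes was 0.00 between old and young. The choice of spots did not use age, so these are tests, with 3 residual degrees of freedom between age groups and 4 in the trend. In summed spots fewer cells of a type and less RNA per cell cannot be told apart.

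Old and middle were both compared with the same young sections, so their values are set side by side below and their lists are not counted against each other. Old and young sections did not overlap in any of the 35 genes. These genes were chosen by a small p between the same sections, and the share without overlap among all genes tested is not given. The count is therefore a description and not a separate check. The lack of overlap also fixes the direction of old 1 against both young sections on slide 1. There the median size, as a log2 ratio of CPM plus 1, was 0.887 times the fitted one. The 1 added to each CPM makes this ratio smaller for low genes, so the measures are not alike. Values given below as within a slide use the same ratio. Only 8 of the 35 kept their call whichever section was left out: Hspa1a, Hspa1b, Dnajb1, C4b, AC149090.1, Rbm3, Mapk3 and mt-Nd3. After thinning all sections to the smallest total, 23 genes were called.

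**Figure D3:**
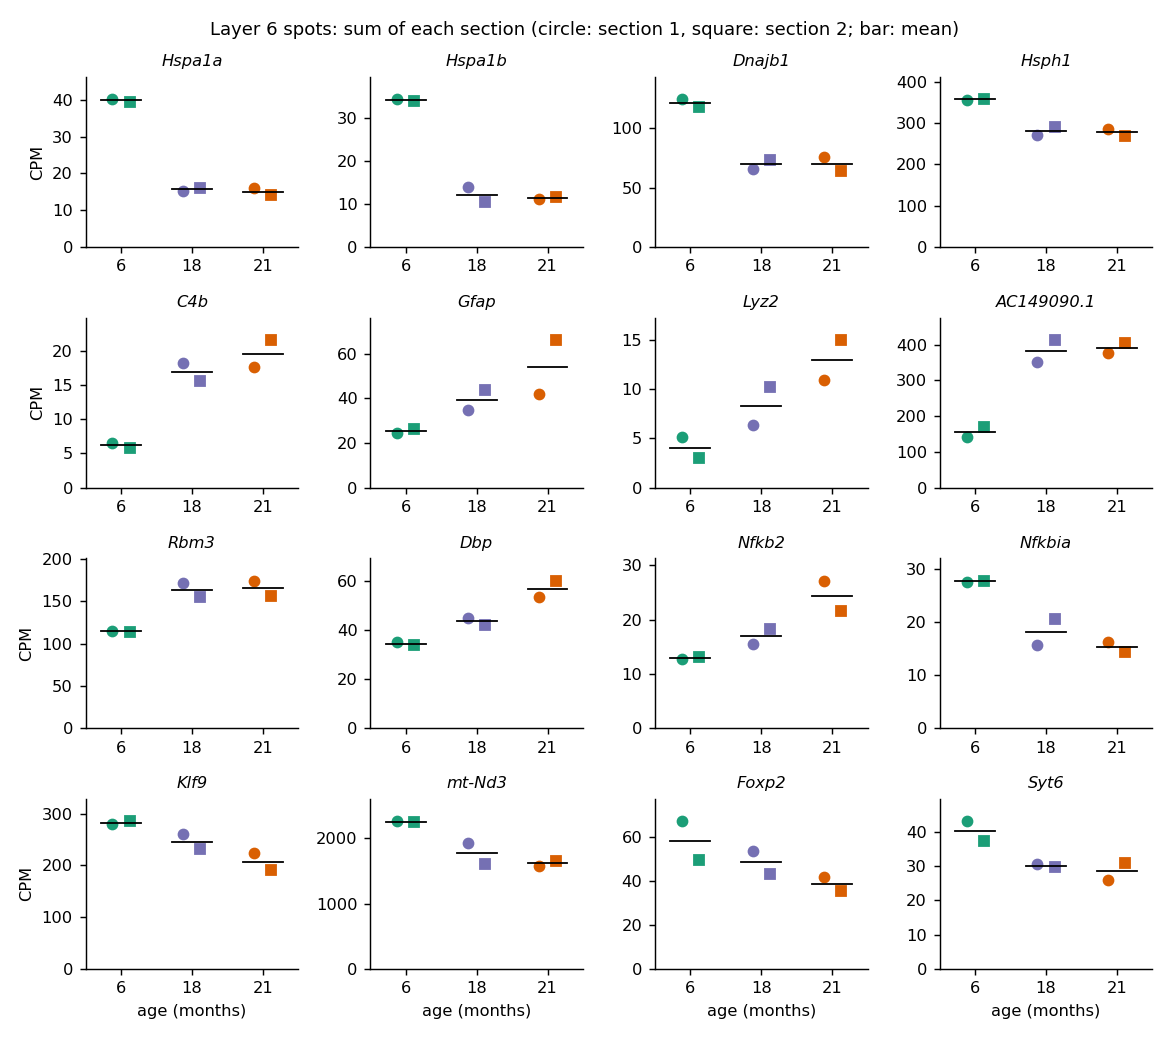
Level of 16 genes in the summed layer 6 spots of each section, in CPM scaled by TMM factors, against age in months; circles are section 1, squares section 2 and bars the mean of 2 sections, each axis starting at 0. Hspa1a, Hspa1b and Dnajb1 stand apart at 6 months (Hspa1a 40.2 and 39.6 CPM) with 18 and 21 months alike, Dbp is lowest at 6 and highest at 21 months, and Foxp2 and Syt6 did not pass the test.

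In layer 6 spots 4 heat shock genes fell between 6 months and either later age. Their products are chaperones that bind unfolded proteins, induced under stress by the factor HSF1, and Hspa1a and Hspa1b encode near-identical copies of the inducible heat shock protein 70. Of 14 heat shock genes, all tested, 4 fell and 0 rose between young and old, 13 had lower values in old, and the median log2 fold change was -0.22. Hspa1a (chr17:34969190-34972156, minus strand, GRCm38) was at 40.2 and 39.6 CPM in the young sections, 15.3 and 16.1 CPM in middle, and 16.0 and 14.1 CPM in old. Both young sections were far above the other 4, and middle and old overlapped. The old to young log2 fold change was -1.40 (SE 0.16, adjusted p = 1.12e-05), the middle to young one -1.35 (SE 0.15, adjusted p = 8.44e-06), and within slide 1 they were -1.27 and -1.33. Hspa1b (chr17:34956436-34959238, minus strand) was at 34.4 and 34.0, 13.9 and 10.4, and 11.2 and 11.6 CPM, with log2 fold changes of -1.58 and -1.49 and the same adjusted p-values. The counts of these copies are uncertain one against the other because reads can fit both.

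Dnajb1, a co-chaperone of the same proteins, was at 125 and 118 CPM in young, 66.1 and 73.4 CPM in middle and 75.5 and 64.3 CPM in old. It fell by 0.79 on the log2 scale in old (adjusted p = 3.25e-05) and by 0.80 in middle (adjusted p = 1.3e-05), and the groups did not overlap with young. Hsph1, a nucleotide exchange factor for heat shock protein 70, was at 357 and 358, 272 and 291, and 285 and 270 CPM. It fell by 0.37 (adjusted p = 0.0193) in old and 0.34 (adjusted p = 0.0351) in middle. The old call was lost without young 1 or old 2 (-0.41 to -0.32 with a section left out, largest adjusted p 0.266). The middle call was lost without any of the 4 young and middle sections (-0.39 to -0.29, largest 0.377). Constitutive members had smaller differences: Hspa8 had a log2 fold change of -0.11 and Hsp90aa1 one of -0.19, neither of which passed. The difference from the rest of the section did not pass the test: the old to young change in layer 6 spots minus that in all other spots was 0.33 for Hspa1a (adjusted p = 0.840), 0.26 for Hspa1b and -0.08 for Dnajb1.

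HSF1 binds repeats of the bases nGAAn in alternating orientation, so the 250 bases before the RefSeq start of each called heat shock gene (GRCm38.p6) were searched for GAANNTTC and TTCNNGAA, each of which reads the same on both strands. The windows of Hspa1a and Hspa1b are shown because they carry the same match in the same place; they run from 5′ to 3′ on the gene's strand up to the base before the start, and capitals mark the match.
Hspa1a, chr17:34972157-34972406, minus strand: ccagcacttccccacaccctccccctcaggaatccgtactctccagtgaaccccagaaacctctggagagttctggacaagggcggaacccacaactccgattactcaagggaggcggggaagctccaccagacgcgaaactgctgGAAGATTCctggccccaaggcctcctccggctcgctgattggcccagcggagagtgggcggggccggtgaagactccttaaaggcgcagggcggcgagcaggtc
Hspa1b, chr17:34959239-34959488, minus strand: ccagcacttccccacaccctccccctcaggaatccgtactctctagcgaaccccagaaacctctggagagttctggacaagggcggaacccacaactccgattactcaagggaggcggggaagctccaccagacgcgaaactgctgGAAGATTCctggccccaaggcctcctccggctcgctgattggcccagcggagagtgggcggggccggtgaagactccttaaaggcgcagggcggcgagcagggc
Each match, GAAGATTC, begins 104 bases before the start, and the windows are identical at 247 of 250 bases (98.8%). Hsph1 had a match in 2 of 2 windows, the nearest 33 bases before a start, and Dnajb1 in 0 of 2. Of 32851 RefSeq windows of the same length, 12.84% held such a match. A match is a description of letters and not of binding.

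C4b, the complement component that is deposited on targets before the C3 step, was the called gene of largest increase among those with at least 10 CPM. It lies at chr17:34728380-34743882 and was at 6.51 and 5.85 CPM in young, 18.2 and 15.6 CPM in middle, and 17.6 and 21.6 CPM in old. Both young sections lay below the other 4. The log2 fold change was 1.65 (SE 0.23, adjusted p = 0.000233) in old and 1.45 (SE 0.23, adjusted p = 0.00151) in middle. Within slide 1 the log2 ratios of CPM plus 1 were 1.37 and 1.42, a measure that differs from the fitted changes. The old call was kept with any section left out. Without the 30 spots of largest myelin share in each section the log2 fold change was 1.07 in old (adjusted p = 0.296) and 0.997 in middle (adjusted p = 0.508), and neither passed. On the 4 sections of slide 1 alone the old difference missed the threshold (1.504, adjusted p = 0.0604). The change in layer 6 spots minus that in all other spots was -0.47 (adjusted p = 0.822).

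Among 18 genes of activated glia, 13 were tested, 3 rose, 0 fell and 12 had higher values in old, with a median log2 fold change of 0.57. Besides C4b these were Lyz2, a lysozyme of myeloid cells, and Tyrobp, the signalling adaptor of TREM2. Lyz2 was at 5.11 and 3.04 CPM in young, 6.38 and 10.2 CPM in middle and 10.9 and 15.0 CPM in old (log2 fold change 1.65, SE 0.31, adjusted p = 0.0128). Its call was lost without young 2 or old 2 (1.32 to 2.07 with a section left out, largest adjusted p 0.114). Tyrobp was at 42.5 and 47.1, 53.1 and 59.6, and 58.1 and 80.3 CPM (0.62, SE 0.13, adjusted p = 0.0473), with old 2 above all others. Its call was lost without young 1, young 2 or old 2 (0.38 to 0.84, largest adjusted p 0.541), and on slide 1 alone it was 0.375 (adjusted p 0.864). Of 9 microglia markers 8 had higher values in old and 0 passed; their sum was 341 and 413 CPM in young, 387 and 388 CPM in middle, and 421 and 502 CPM in old, and its part in these results was not tested.

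Gfap was at 24.6 and 26.2 CPM in young, 34.8 and 43.5 CPM in middle, and 42.1 and 66.2 CPM in old. Every old section lay above both young ones, and the spread between the old sections was wide. The log2 fold change was 1.07 (SE 0.20, adjusted p = 0.0473), and the call was lost without young 1, young 2 or old 2 (0.73 to 1.38, largest adjusted p 0.397). Gfap was the 1 of 8 astrocyte genes that rose, while 6 of the 8 had lower values in old (median -0.11). Of 11 oligodendrocyte genes 0 passed and 7 had higher values (median 0.10); their sum was 6227 CPM in old 1 and 7512 CPM in old 2, with the young sections at 6661 and 6552 CPM. Neat1, a nuclear long non-coding RNA, was at 53.2 and 55.3, 107 and 127, and 84.0 and 124 CPM, with no overlap between old and young, and did not pass (0.92, adjusted p = 0.165).

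**Figure D4:**
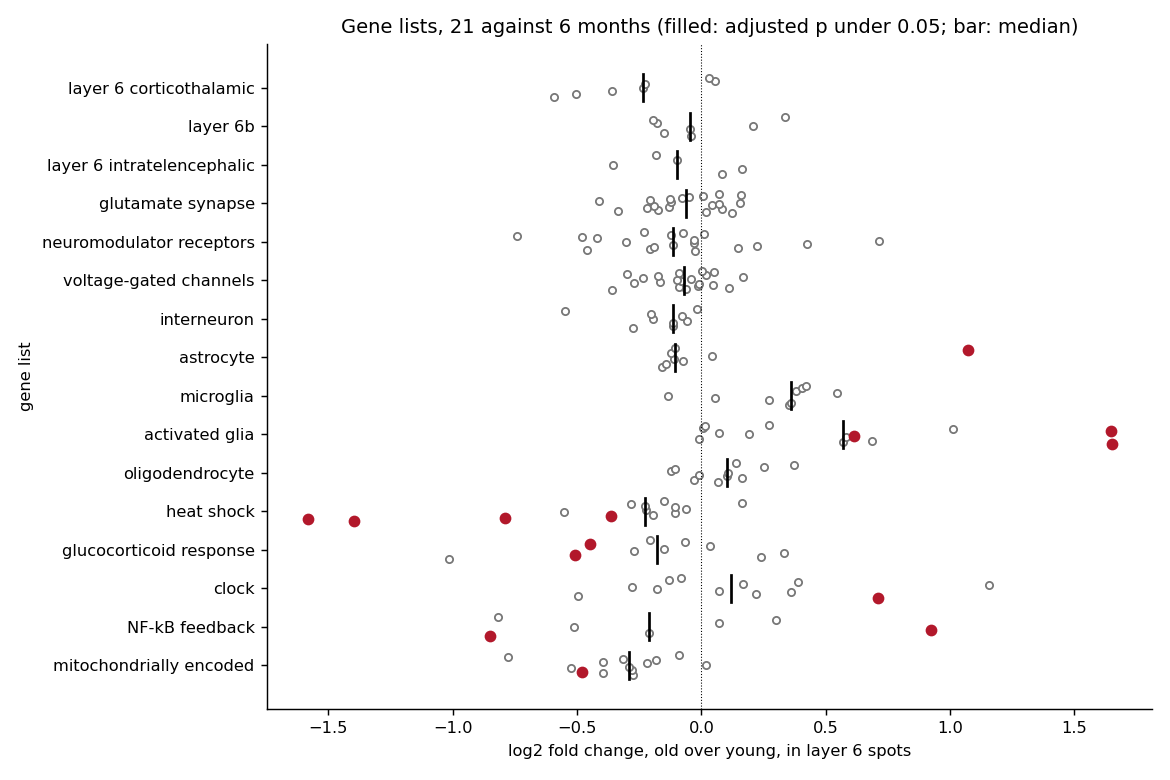
Log2 fold change between old (21 months) and young (6 months) layer 6 spots for each tested gene of 16 lists, with 1 row per list; filled red points passed an adjusted p of 0.05 in edgeR and the vertical bar is the median of the list. The red points on the left include 4 heat shock genes, those on the right 3 genes of activated glia and Gfap, and the layer 6, synapse and channel lists have 0.

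The gene with the smallest adjusted p was AC149090.1, a protein-coding gene model on the unplaced scaffold JH584304.1 (52190 to 59690, minus strand). It was at 143 and 169 CPM in young, 351 and 413 CPM in middle and 378 and 404 CPM in old. The log2 fold change was 1.33 (SE 0.09, adjusted p = 5.56e-09) in old and 1.295 (adjusted p = 7.66e-09) in middle, and 1.27 and 1.17 within slide 1. Rbm3, a cold-induced RNA-binding protein, was at 115 and 114, 172 and 155, and 174 and 156 CPM. It rose by 0.53 (SE 0.08, adjusted p = 0.00173) in old and 0.51 (adjusted p = 0.00232) in middle, the latter call lost without middle 1 (0.43 at the lowest, adjusted p 0.0651). Mapk3, the kinase ERK1, rose from 108 and 110 CPM through 135 and 133 CPM to 151 and 166 CPM (0.54, SE 0.08, adjusted p = 0.00093).

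Other genes that rose in old had varied roles. Dbp, a transcription factor whose level cycles daily under the circadian clock and the 1 of 12 clock genes called, was at 35.1 and 34.0, 44.9 and 42.2, and 53.3 and 60.2 CPM (0.71, SE 0.12, adjusted p = 0.00447). The call was lost without old 2 (0.63, adjusted p 0.070). Slc5a5, the sodium iodide symporter, was at 25.1 and 27.4, 33.5 and 34.7, and 45.6 and 46.1 CPM (0.80, adjusted p = 0.00327), lost without young 1 (0.74, adjusted p 0.0572). Nkx6-2, a homeobox factor of the oligodendrocyte lineage, was at 19.8 and 15.9, 31.2 and 25.8, and 28.3 and 39.2 CPM (0.90, adjusted p = 0.0241), lost without young 2 or old 2 (0.67 to 1.13, largest adjusted p 0.287). Ptpro, a receptor tyrosine phosphatase, was at 6.97 and 6.09, 11.6 and 13.1, and 13.9 and 14.4 CPM (1.11, SE 0.24, adjusted p = 0.0471), lost without any of the young or old sections (1.01 to 1.21, largest adjusted p 0.177). The Ptpro difference depended on the choice of spots: it was 0.24 with 60 spots per section, 0.06 with 240, and 0.35 with spots thinned before scoring.

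The NF-kB list moved in both directions. NF-kB factors enter the nucleus when their inhibitor, encoded by Nfkbia, is degraded, and they in turn drive Nfkbia and Nfkb2. Of 7 genes tested of 10, 1 rose and 1 fell, with a median of -0.21. Nfkb2, a subunit precursor, was at 12.8 and 13.1 CPM in young, 15.5 and 18.4 CPM in middle and 27.2 and 21.6 CPM in old (0.92, SE 0.19, adjusted p = 0.0246). Its call was lost without young 1, young 2 or old 1 (0.74 to 1.07, largest adjusted p 0.25). Nfkbia was at 27.7 and 27.9, 15.7 and 20.6, and 16.3 and 14.4 CPM, and its old and young sections did not overlap. Its log2 fold change was -0.85 (SE 0.18, adjusted p = 0.0341), and this call was lost without any young or old section (-0.94 to -0.77, largest adjusted p 0.223). The upstream window of Nfkbia is shown for its kB site, with the match to the kB motif (GGGA, any base, then TTTCC), read here on the other strand, in capitals 29 bases before the start.
Nfkbia, chr12:55492648-55492897, minus strand, RefSeq GRCm38.p6: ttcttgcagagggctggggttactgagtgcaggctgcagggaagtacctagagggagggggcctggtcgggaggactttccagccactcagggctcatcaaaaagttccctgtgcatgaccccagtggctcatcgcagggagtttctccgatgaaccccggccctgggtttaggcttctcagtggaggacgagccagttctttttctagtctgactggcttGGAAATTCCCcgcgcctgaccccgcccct
Nfkb2 had a match in 1 of 3 windows, 225 bases before that start, and 0.356% of the 32851 windows held one on either strand.

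In the old layer 6 spots 2 genes that glucocorticoid hormones induce fell. Of 10 tested of 12, 2 fell and 0 rose between young and old, and 7 had lower values (median -0.18). Klf9, a zinc finger factor, was at 279.5 and 285 CPM in young, 260 and 231 CPM in middle, and 223 and 191 CPM in old (-0.45, SE 0.08, adjusted p = 0.00892; lost without old 2, -0.34, adjusted p 0.263). Tsc22d3, the glucocorticoid-induced leucine zipper, was at 76.2 and 80.1, 62.0 and 61.2, and 54.9 and 54.9 CPM (-0.51, SE 0.10, adjusted p = 0.0246; lost without any young or old section, -0.54 to -0.47, largest adjusted p 0.13). Sgk1, a kinase of the same response, was at 143 and 184, 79.3 and 104, and 83.2 and 78.7 CPM. It missed the threshold between old and young (-1.01, adjusted p = 0.0594) and passed it in the age trend (adjusted p = 0.00593; lost without old 2, adjusted p 0.0751).

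Among 13 mitochondrially encoded genes 12 had lower values in old and 1 fell, with a median of -0.29. It was mt-Nd3, a subunit of respiratory complex I, at 2265 and 2248 CPM in young, 1933 and 1615 CPM in middle, and 1579 and 1661 CPM in old (-0.48, SE 0.08, adjusted p = 0.00249). Middle 1 lay between young and the rest. The summed level of the 13 genes was 132363 and 113332 CPM in young, 119883 and 104185 CPM in middle, and 101621 and 103359 CPM in old. Middle 1 on slide 1 lay above young 2, and middle 2 on slide 2 lay near both old sections. The part of the slide in this sum was not tested.

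Among called genes with a mean of at least 10 CPM, the others that fell most in old were Ide, Cmpk2, Trhde and Kcnh7. Ide, a protease that degrades insulin and amyloid-beta, was at 59.3 and 55.5 CPM in young, 48.3 and 33.1 CPM in middle, and 28.3 and 37.9 CPM in old (-0.81, adjusted p = 0.0486). Cmpk2, a mitochondrial nucleotide kinase, had a log2 fold change of -0.77 (adjusted p = 0.0498), Trhde, which degrades thyrotropin-releasing hormone, -0.64 (adjusted p = 0.0473) and Kcnh7, a potassium channel, -0.54 (adjusted p = 0.0307). Trhde was at 36.2 and 40.3 CPM in middle against 41.1 and 38.9 CPM in young and 26.7 and 24.5 CPM in old, so that middle lay with young, and the old to middle log2 fold change of -0.58 did not pass. None of these 4 calls was kept with every section left out in turn. The call of Ide was lost without young 1, young 2 or old 1 (-1.02 to -0.60, largest adjusted p 0.299). That of Cmpk2 was lost without young 1, old 1 or old 2 (-0.94 to -0.58, largest adjusted p 0.413). Trhde lost its call without any young or old section (-0.71 to -0.58, largest adjusted p 0.28), and Kcnh7 without young 1, young 2 or old 2 (-0.63 to -0.46, largest adjusted p 0.274).

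The fixed lists of layer 6 markers had 0 calls. Of 7 corticothalamic, 5 intratelencephalic and 7 layer 6b markers, 0 passed between old and young, with medians of -0.23, -0.10 and -0.05. Foxp2 was at 67.2 and 49.4 CPM in young, 53.8 and 43.3 CPM in middle and 41.6 and 35.4 CPM in old, without overlap between old and young (-0.59, SE 0.15, adjusted p = 0.130). Ccn2 was at 131 and 145, 151 and 140.1, and 117 and 152 CPM (-0.04, SE 0.10, adjusted p = 0.933). Cplx3 ranged from 50.7 CPM in old 1 to 105 CPM in old 2, wider than between ages (-0.15, SE 0.39, adjusted p = 0.948). The rule sets the same number of spots in each section, so these levels describe the spots and not the number of layer 6 neurons.

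The fixed lists of synaptic and excitability genes also had 0 calls between old and young; the channel gene Kcnh7, described above, is not among their members. Of 20 genes of the glutamate synapse 0 passed between old and young (median -0.06). The same was found for 19 neuromodulator receptor genes (0 called, median -0.11), 20 voltage-gated channel genes (0 called, median -0.07) and 14 immediate early genes (0 called, median -0.12). Of 9 interneuron markers 0 passed, although all 9 had lower values in old (median -0.11). Slc17a7 was at 1072 and 1045, 1083 and 1112, and 1119 and 1188 CPM (0.12, SE 0.07, adjusted p = 0.594). In the age trend Grin2a, an NMDA receptor subunit, fell from 142 and 138 CPM through 114 and 125 CPM to 110.4 and 112 CPM (adjusted p = 0.0458), a call that was kept in only 1 of 6 fits with a section left out. Chrna5, the nicotinic receptor subunit typical of layer 6, had a log2 fold change of -0.46 at 5.94 CPM (adjusted p = 0.658).

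Between middle and young, the 7 genes that rose included AC149090.1, C4b and Rbm3 and the 8 that fell included the 4 heat shock genes, all described above. Tiam1, a Rac exchange factor, was at 13.9 and 14.5 CPM in young and 22.5 and 29.2 CPM in middle (0.86, SE 0.18, adjusted p = 0.0351; lost without young 1, young 2 or middle 2, 0.67 to 1.04, largest adjusted p 0.642), and was 0.16 with 240 spots per section. Tmbim1 was at 33.5 and 31.8 and at 47.6 and 51.4 CPM (0.60) and Phlda1 at 38.1 and 42.2 and at 24.8 and 23.3 CPM (-0.74), both with calls lost without any of the 4 sections (largest adjusted p 0.441 and 0.373). With 240 spots per section Phlda1 was -0.42 and not called. Ccnb1, a mitotic cyclin, was at 13.5 and 19.9, 4.10 and 4.99, and 7.20 and 5.02 CPM. Its middle to young log2 fold change was -1.87 (adjusted p = 0.000421), a call kept with any section left out. The old to young one was -1.43 (adjusted p = 0.0111), lost without young 2 or old 2 (largest adjusted p 0.115). It was named after its values were seen, being under the mean level set for named genes.

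Between old and middle, where no gene passed, the smallest p-values belonged to Hpcal1 (0.59), Id1 (0.67) and C1qa (0.44) on the higher side and Trhde (-0.58), Pvalb (-0.34) and Fndc5 (-0.49) on the lower side, given as log2 fold changes with adjusted p = 0.999 each. Id1, a target of BMP signalling, was at 15.9 and 19.9 CPM in middle and 32.8 and 23.8 CPM in old. C1qa, a complement gene of microglia, was at 49.4 and 54.6 CPM in middle and 60.3 and 81.5 CPM in old. Within slide 2 alone the old to middle log2 difference of Hspa1a was -0.18.

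The age trend added genes with moderate differences at 3 ages. Tafa2, a secreted neurokine-like protein, rose from 15.3 and 12.4 CPM through 20.5 and 22.2 CPM to 20.8 and 28.8 CPM (adjusted p = 0.0261; lost without young 1, young 2 or old 2, largest adjusted p 0.201). With 240 spots per section the Tafa2 trend was -0.00434 per month in place of 0.054, and with 60 spots or spots thinned before scoring it was 0.034 and 0.00617, without a call. Ntn5, a netrin, was at 13.5 and 13.3, 22.3 and 22.4, and 24.0 and 18.5 CPM (adjusted p = 0.0458). Nrep was at 40.2 and 43.1, 34.2 and 27.2, and 29.6 and 26.6 CPM (adjusted p = 0.0387). With a section left out in turn, the calls of Ntn5 and Nrep were kept in 1 and 2 of 6 fits. Ifi27, the 1 of 10 interferon response genes called in the trend, was at 50.2 and 49.2, 65.6 and 76.6, and 74.7 and 63.6 CPM (adjusted p = 0.013; lost without young 1 or young 2, largest adjusted p 0.117).

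Whether the age change in layer 6 spots differed from that elsewhere was tested as an interaction of age with the set of spots, blocked by section. Against all other spots of the same section 28 of 16684 genes passed (0.168%), and 6.14% had an unadjusted p under 0.05. The old to young log2 change, counted with its sign, was higher in layer 6 spots for 11 (0.0659%) and lower for 17 (0.102%). In this fit edgeR estimated an infinite prior degree of freedom for all 16684 genes, so that a gene's own spread between sections did not enter its p. By limma on the differences within sections 0 genes passed, with 1003 at an unadjusted p under 0.05. These calls therefore rest on the shared estimate of spread.

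With that limit, 3 named genes kept their call whichever section was left out. Ighm was at 200 and 155 CPM in layer 6 spots of young, 141 and 184 CPM in middle, and 126 and 142 CPM in old, and at 17.7 to 26.2 CPM in the other spots. The difference of the log2 changes was -0.82 (SE 0.09, adjusted p = 3.95e-15). AC149090.1 had a larger change in layer 6 spots by 0.40 (SE 0.07, adjusted p = 2.37e-05), the other spots being at 116 and 151 CPM in young and 256 and 262 CPM in old. Nptxr, a neuronal pentraxin receptor, was at 183 and 235 CPM in young and 274 and 290.1 CPM in old in layer 6 spots and at 294 and 405 CPM and 347 and 317 CPM in the others, a difference of 0.49 (adjusted p = 5.37e-09). With 60 or 240 spots per section or spots thinned before scoring, Ighm remained called (-0.64, -1.04 and -0.76). AC149090.1 was not called with spots thinned before scoring (0.32, adjusted p = 0.0581), and Nptxr was called under none of the 3 (0.12, 0.14 and 0.046).

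Ptpro and Tafa2 had larger changes in layer 6 spots than in other spots, by 1.25 (SE 0.24, adjusted p = 0.000347) and 1.07 (SE 0.18, adjusted p = 3.46e-06). Ptpro was at 6.72 and 6.04 CPM in young and 14.0 and 14.7 CPM in old in layer 6 spots, against 21.2 to 26.2 CPM over all sections in other spots, and its call was lost without young 1 (adjusted p 0.0544). Tafa2 lost its call without old 2 (0.78, adjusted p 0.368). Tiam1 had a difference of 0.91 (adjusted p = 0.000352; lost without young 2 or old 1, largest adjusted p 0.236). Syt6 was at 41.7 and 37.2 CPM in layer 6 spots of young, 30.4 and 30.1 CPM in middle and 26.4 and 31.5 CPM in old, and at 9.88 to 12.1 CPM in the other spots. Syt6 was thus lower in old in layer 6 spots and slightly higher in the others. The difference of the log2 changes was -0.70 (SE 0.16, adjusted p = 0.00722), a call lost without young 1 or old 1 (largest adjusted p 0.376). Under the same other choices of spots, with 60, with 240 and with thinning before scoring, Ptpro was 0.35, 0.21 and 0.48, Tafa2 0.63, 0.26 and 0.23, and Tiam1 0.70, 0.29 and 0.63, all without a call. Syt6 kept its size (-0.72, -0.72 and -0.73) and was called with 240 spots. For most age genes the difference did not pass: it was 0.31 for Mapk3 (adjusted p = 0.0868), 0.17 for Gfap, 0.14 for Rbm3 and 0.08 for Lyz2.

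Against layer 5 spots 13 of 13079 genes passed (0.0994%), with 5.4% at an unadjusted p under 0.05. The change, counted with its sign, was higher in layer 6 spots for 5 (0.0382%) and lower for 8 (0.0612%). Limma on the differences called 0 (729 at an unadjusted p under 0.05). Ptpro (1.53), Tafa2 (1.06), AC149090.1 (0.42) and Nptxr (0.40) had larger changes in layer 6 spots here too, with the same layer 6 sums in both comparisons. With 60 spots, 240 spots or thinning before scoring, Ptpro was 0.50, 0.44 and 0.40, Tafa2 0.70, 0.10 and 0.11, and Nptxr 0.0051, -0.019 and -0.12, without a call. AC149090.1 was 0.25, 0.30 and 0.27 under the same choices, also without a call. Penk had a difference of 0.77, which turned to -0.47 with 60 and -0.048 with 240 spots. Nr4a2 had one of -0.69, and of -0.45 and -0.47 with 60 and 240 spots, without a call. Of the 13 calls, 0 of the 9 named kept theirs whichever section was left out. The layer 5 set also held spots outside the cortex: 74 to 99 of its 120 spots had at least 500 CPM of Slc17a7, against 118 to 120 of the layer 6 spots. The ribosomal protein genes Rps27, Rps28 and Rps29 had differences of -0.32, -0.31 and -0.35.

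**Figure D5:**
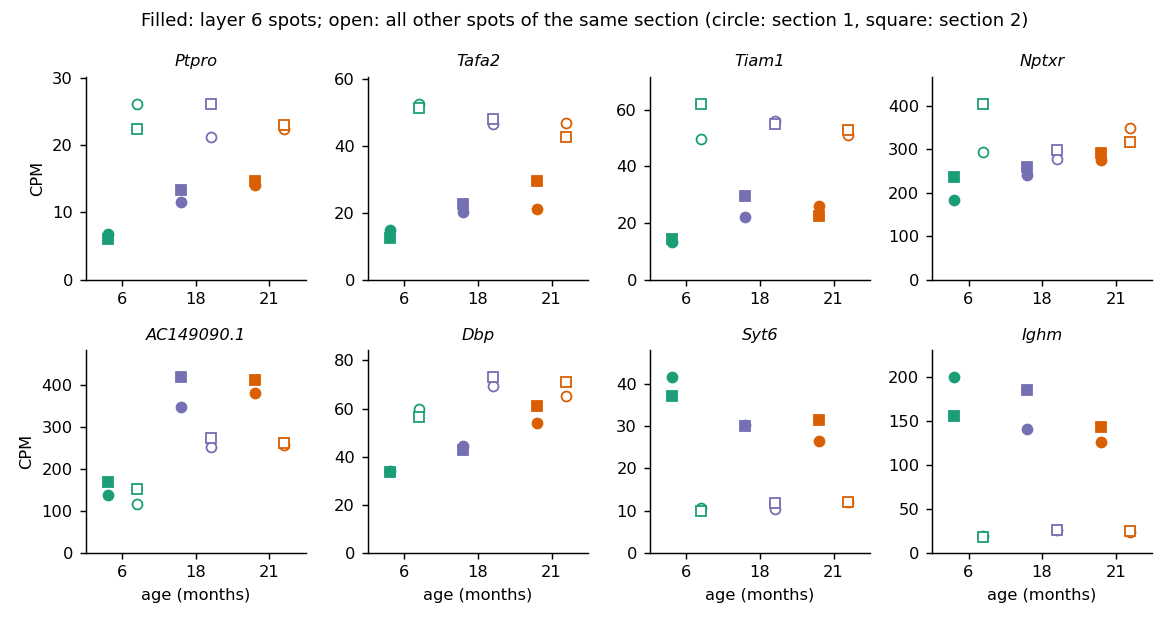
Level of 8 genes in CPM against age in months, in layer 6 spots (filled) and in all other spots of the same section (open), circles for section 1 and squares for section 2, each axis starting at 0. Ptpro and Tafa2 are lower in layer 6 spots than in the others at every age and nearest at 18 and 21 months. AC149090.1 is higher in layer 6 spots in every section, by more at 18 and 21 months than at 6, and Ighm is several-fold higher in layer 6 spots in every section.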

How the data were processed

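UMI counts per gene and spot were deposited by the authors for 6 Visium sections, and per the file headers came from Space Ranger 1.3.1 (3.1 per the submitters' processing notes). The annotation and any filter on spots by the authors are not given in the sources used here, and spot positions were not used. Gene positions come from GENCODE M21 (GRCm38), which matched 32235 of 32285 identifiers, and promoters from RefSeq (GRCm38.p6). The 500 UMI minimum removed 2 of 16743 spots. Because a section is the replicate, UMIs were summed over the 120 layer 6 spots, 120 layer 5 spots or all other spots of each section. Layer 5 spots had the highest score over Etv1, Parm1, Deptor, Fezf2 and Tcerg1l among the rest. The p-values rest on the spread between these sections. In the fit against all other spots they rest only on the spread shared by all genes.

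The test was the quasi-likelihood F-test of edgeR 4.0.16, with robust estimation, filterByExpr and TMM factors, over all 6 sections with age group as the term, p-values were Benjamini-Hochberg adjusted over all genes tested, and 0.05 was the threshold, two-sided. Interactions took section as a block. In the fit against all other spots the prior degrees of freedom were infinite for all 16684 genes. Standard errors were taken as the absolute log2 fold change over the square root of F. Log2 ratios between sets of spots used a pseudocount of 1 CPM. The scripts were tested on simulated data. Depth was 3139919 to 4461956 UMIs per layer 6 sum.

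Named genes were up to 8 called genes per direction and comparison (4 for interactions) with the largest absolute log2 fold change, a mean of at least 10 CPM and no overlap between the compared sections, the 3 of smallest p where fewer than 3 were called, the 15 highest in layer 6 spots with at least 20 CPM, up to 4 called genes per list, and layer 6 and age genes reported whatever their values. The spots, 32 lists and genes were chosen with earlier results of these data known. The alternatives tried included DESeq2 1.42.0, size factors by RLE, another filter (none, or at least 10 UMIs in every sum), sums thinned to the smallest, a block for the slide or for the replicate number, the compared groups alone, 60 or 240 spots per section, the 720 highest scores over all sections, spots thinned to 10000 UMIs before scoring, leaving out the 30 spots of largest myelin share, and leaving out single sections. Slide 1 only, layer 5 spots with at least 500 CPM of Slc17a7, edgeR without robust estimation, limma 3.58.1 on differences within sections, and the lymphocyte markers were chosen after seeing the data. A few genes are not reported here. R 4.3.3, Python 3.11.15, numpy 2.4.6, pandas 2.3.3, scipy 1.17.1 and matplotlib 3.10.9 were used.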

Additional observations from a re-analysis of the deposited data

Results flagged for a closer look

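The old to young change in layer 6 spots differed from that in all other spots, by edgeR's interaction test, for 28 genes, of which the 13 named for that test or another are given. Values are the log2 change in layer 6 spots minus that in the others. It was larger in layer 6 spots for Ptpro (1.25), Igfn1 (1.19), Tafa2 (1.07), Hhatl (0.98), Tiam1 (0.91), Dbp (0.53), Nptxr (0.49) and AC149090.1 (0.40). Counted with its sign, it was lower for Ttr (-2.73), Hbb-bs (-1.80), Hba-a2 (-1.75), Ighm (-0.82) and Syt6 (-0.70). With 240 spots per section Ptpro, Tafa2, Tiam1, Nptxr and Dbp were at 0.21, 0.26, 0.29, 0.14 and 0.32, without a call. Dbp was at 0.55 with 60 spots and 0.48 with spots thinned before scoring, also without a call. Ttr, the transthyretin of choroid plexus, was at 844 CPM in layer 6 spots of young 1 and 219 CPM in young 2, and at 68.7 and 133 CPM in old, a spread within young that did not enter its p. The same holds for Hbb-bs, a haemoglobin gene of red blood cells, at 88.8 and 26.5 CPM in young and 13.2 and 22.0 CPM in old.

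The change differed from that in layer 5 spots, by the same kind of test, for 13 genes, of which 9 are given by the same choice. It was larger in layer 6 spots for Ptpro (1.53), Tafa2 (1.06), Penk (0.77), AC149090.1 (0.42) and Nptxr (0.40). Counted with its sign, it was lower for Nr4a2 (-0.69), Rps29 (-0.35), Rps27 (-0.32) and Rps28 (-0.31). Rps28 was at 490 and 488 CPM in layer 6 spots of the 2 sections on slide 2, middle 2 and old 2, and at 716 to 885 CPM in the 4 sections on slide 1. The part of the slide in this result was not tested.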

How the results depend on the processing

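With 2 sections per age, the number of calls moved with the processing, while direction rarely reversed where the main fit or the alternative made a call. Of the values of single genes under the alternatives, 2581 were counted as unchanged, 957 lost and 62 gained the call, and 10 reversed. Direction was not compared where neither fit made a call, and such values are among the 2581. Where no cause is given, the cause was not tested.

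Between old and young the 35 calls became 11 by DESeq2, 135 with no filter on low counts, 23 after thinning to the smallest total, 21 with slide as a block, 20 with 60 spots per section and 9 on slide 1 only (fewer sections), and 20 (without young 1) to 74 (without young 2) with a section left out. Between middle and young the 15 became 8 by DESeq2, 50 with no filter, 25 with 60 and 37 with 240 spots per section, 27 with only the groups compared and 7 on slide 1, and 10 to 37 with a section left out. Between old and middle the 0 became 3 without middle 2, 4 without old 1 and 1 without old 2, so 0 to 4. The 58 trend calls became 16 by DESeq2, 131 with no filter, 24 with slide as a block, 31 with 60 spots, 35 with spots thinned before scoring and 30 without the spots of largest myelin share, and 18 (without old 2) to 97 (without young 2) with a section left out.

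The 28 differences from other spots became 3 by DESeq2, 6 with at least 10 UMIs in every sum, 5 with 60 and 8 with 240 spots, 1 with spots thinned before scoring and 0 by limma on differences, and 9 to 44 with a section left out. The 13 from layer 5 spots became 0 by DESeq2, 6 after thinning, 0 with 60 and 1 with 240 spots, 5 with the 720 highest scores, 4 with spots thinned before scoring, 1 with layer 5 spots of at least 500 CPM of Slc17a7, 8 by edgeR without robust estimation and 0 by limma, and 0 to 18 with a section left out.

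With the replicate number as a block, old and young differed in 63 genes, middle and young in 25 and the trend had 75. Over 7106 genes, deviations of same-numbered sections correlated at -0.02 (young and middle), -0.05 (young and old) and 0.09 (middle and old). Little pairing by number showed over these genes as a whole, and pairing in a part of them was not tested.

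Reversed values were small except where noted. Nptxr between old and young was -0.011 with spots thinned before scoring. In the trend per month with 240 spots, Ptpro was -0.000376, Tafa2 -0.00434 and Nptxr -0.000687. Against other spots, Igfn1 was -0.25 with spots thinned before scoring and Hba-a2 0.30 with 60 spots. Against layer 5 spots, Penk was -0.47 with 60 and -0.048 with 240 spots, and Nptxr -0.019 with 240 spots and -0.12 with spots thinned before scoring. Depth limits genes near 10 CPM: Igfn1 had 17 to 60 UMIs in the layer 6 sum of a section.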

Other observations

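Neuropeptide genes were expressed in the layer 6 spots at every age without a call by edgeR. Of 11 tested, 0 passed between old and young and 4 had higher values in old (median log2 fold change -0.08). Sst, the somatostatin of a class of inhibitory neurons, was at 593 and 367 CPM in young, 553 and 436 CPM in middle, and 434 and 488 CPM in old, a spread within young as wide as that between ages. Npy, which many of the same neurons release, was at 295 and 255, 251 and 295, and 234 and 245 CPM. Penk, which was highest in the myelin-poor spots, was at 43.5 and 56.0, 73.3 and 75.0, and 50.4 and 101 CPM (0.58, adjusted p = 0.766).

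Of 5 endothelial genes 0 passed (median 0.30). Cldn5, a tight junction protein of the blood-brain barrier, was at 36.0 and 29.5, 44.9 and 41.7, and 38.9 and 44.2 CPM (0.34, adjusted p = 0.437). Of 10 interferon response genes 0 passed between old and young, and 8 had higher values in old (median 0.31).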
